A study of Mus musculus with 40 samples.

Results

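Prg4, Lcn2 and Igfbp2 were followed through mouse aortas exposed to angiotensin-II (Ang-II), the vasoconstrictor peptide of the renin-angiotensin system. The 3 genes were chosen by symbol, for being among the largest rises at 24 h of Ang-II, and the tables they come from list 17402 genes (genotype experiment) and 15399 genes (cyclosporine A, CsA, experiment), each holding all 3. Because 24 h values chose them, every 24 h value of these genes is given below as a description without a test. Tests were made on the untreated, 2 h and 6 h libraries. The untreated libraries served both the choice and the tests, so the 2 h and 6 h changes are not fully independent of the choice.

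All 3 genes encode secreted proteins. Prg4 encodes proteoglycan 4, or lubricin, the mucin-like glycoprotein that lubricates joint and serosal surfaces and binds the hyaluronan receptor CD44 and Toll-like receptors. Lcn2 encodes lipocalin 2, an acute-phase protein that binds iron-carrying siderophores and is stored in neutrophil granules but is also made by other cells during inflammation. Igfbp2 encodes insulin-like growth factor binding protein 2, which binds IGF-I and IGF-II and sets how much of them reaches their receptors.

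The genotype experiment compared Cn-Ctl and SM-Cn-/- male mice without Ang-II and at 2, 6 and 24 h of infusion, and addressed whether calcineurin in smooth muscle is needed for the Ang-II response. By the labels of these libraries, both genotypes carried the floxed calcineurin B1 gene Ppp3r1. The methods place both on a C57BL/6J background and give tamoxifen as 1 mg daily for 5 days at 10 to 12 weeks of age. Tamoxifen was given 6 weeks before the experiment. SM-Cn-/- mice additionally carried the Myh11-CreERT2 transgene, a tamoxifen-inducible Cre that is active in smooth muscle and sits on the Y chromosome, which is why only males were used, whereas the Cn-Ctl libraries are labelled as Cre-negative. The study's methods count Cre-positive mice without the floxed gene as Cn-Ctl controls too, and the labels name none of them here. The CsA experiment compared wild-type (WT) C57BL/6J male mice with WT mice that had received CsA, an inhibitor of the calcineurin phosphatase, at 5 mg/kg/day for 5 days by minipump, both without Ang-II and at 2 and 24 h of it. Mice of this design were 10 to 12 weeks old when the CsA pumps were placed. Ang-II was infused by osmotic minipump at 1 µg/kg/min in both experiments. WT mice without CsA had no pump at the CsA stage, so CsA and the pump cannot be told apart in the untreated comparison. By the methods, control mice were operated on but given no pump, and no vehicle pump is named for Ang-II. Ang-II and its pump thus cannot be told apart in any comparison with untreated mice. Ang-II-treated Cn-Ctl, WT and CsA mice entered the study only with a systolic pressure above 130 mmHg, whereas SM-Cn-/- mice were taken without that criterion. Each library was a pool of 3 aortas stripped of adventitia and perivascular tissue, and each group had 3 libraries, except that 2 were analysed here for untreated Cn-Ctl and for Cn-Ctl at 24 h (replicates 2 and 3 of each). The study discarded 1 untreated Cn-Ctl replicate that deviated from the other 2 in a principal component analysis. It gives no reason for the Cn-Ctl 24 h group. The p-values below therefore measure the spread between the pools that were kept.

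The deposited values are gene signals scaled so that libraries sum to similar totals, from 2.73M to 10.3M reads per library in the genotype experiment (22 libraries) and 19.0M to 38.9M in the CsA experiment (18 libraries), so the CsA libraries are the deeper ones. The smooth muscle identity of the tissue was clear, with Acta2, Myh11, Tagln, Cnn1, Smtn, Lmod1 and Myocd summing to between 16292 and 49393 in every group. Ppp3r1, the targeted gene, had a signal of 45.7 to 134 in the 10 Cn-Ctl libraries and 41.8 to 118 in the 12 libraries labelled SM-Cn-/-, and these ranges overlapped. The SM-Cn-/- minus Cn-Ctl log2 difference in Ppp3r1 was −0.46 in untreated mice (adjusted p = 0.983), −0.12 at 2 h (adjusted p = 0.927), −0.60 at 6 h (adjusted p = 0.429) and 0.26 at 24 h (adjusted p = 0.766; limma, Benjamini-Hochberg over all genes). The value counts the whole gene in all aortic cell types. The extent of the floxed segment is not given in the sources used here, so this signal does not check the labels. By the methods, a piece of aortic tissue was tested by PCR for recombination of the floxed gene. SM-Cn-/- mice in which the deletion could not be shown were removed. The study also reports lower calcineurin B and calcineurin A protein in aortic extracts of SM-Cn-/- mice than of Cn-Ctl mice. Genotype is used below as the labels give it.

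In GRCm38 with GENCODE M21 annotation, Prg4 (ENSMUSG00000006014) lies on the minus strand at chr1:150449412-150466165, Lcn2 (ENSMUSG00000026822) on the minus strand at chr2:32384633-32388252, and Igfbp2 (ENSMUSG00000039323) on the plus strand at chr1:72824503-72852474. The 3′ end of Prg4 overlaps Tpr, on the opposite strand, by 524 bases, of which 204 are exonic in both genes. Whether counting used strand is not given in the sources used here, so reads from those bases may be shared. Tpr, a nuclear pore component, itself stayed within a log2 difference of −0.23 to 0.27 over 10 genotype comparisons, none of them called, and −0.19 to 0.19 over 7 CsA comparisons, 1 of them called. Igfbp2 and Igfbp5 are neighbours 5457 bases apart.

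The sequences upstream of Lcn2 and Igfbp2 are shown because both genes were high in the same 24 h groups. Each is the 250 bases before a RefSeq start site in GRCm38.p6, printed 5′ to 3′ on the gene's strand, with motif matches in capitals. The table used holds 1 start for Lcn2 (chr2:32387740-32387989, minus strand) and 2 for Igfbp2 (chr1:72824230-72824479 and chr1:72825137-72825386, plus strand); Prg4 was not matched.

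Lcn2: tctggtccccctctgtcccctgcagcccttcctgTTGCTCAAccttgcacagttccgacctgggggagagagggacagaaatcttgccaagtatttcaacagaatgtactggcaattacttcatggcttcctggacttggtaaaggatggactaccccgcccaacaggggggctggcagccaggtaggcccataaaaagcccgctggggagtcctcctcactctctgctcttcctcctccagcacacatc

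Igfbp2, first start: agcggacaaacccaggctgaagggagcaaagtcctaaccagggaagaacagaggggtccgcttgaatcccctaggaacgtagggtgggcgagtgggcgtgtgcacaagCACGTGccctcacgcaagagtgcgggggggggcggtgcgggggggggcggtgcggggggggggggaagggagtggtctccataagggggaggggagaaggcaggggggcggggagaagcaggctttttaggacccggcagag

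Igfbp2, second start: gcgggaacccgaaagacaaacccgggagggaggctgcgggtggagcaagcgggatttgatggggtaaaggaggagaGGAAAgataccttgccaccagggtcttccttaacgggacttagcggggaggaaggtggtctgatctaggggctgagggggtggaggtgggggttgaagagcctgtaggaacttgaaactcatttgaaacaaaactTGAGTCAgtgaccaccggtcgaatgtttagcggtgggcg

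The windows were searched on both strands for AP-1 as TGANTCA, for the cyclic-AMP element as TGACGTCA and for C/EBP as TTNNGCAA. The NFAT core was searched as GGAAA, the TATA box as TATAAA, the E-box as CACGTG, and the CArG box by its usual consensus. The Lcn2 window held a C/EBP match 216 bases before the start, a motif found in 9.56% of 32851 promoter windows of this length. The first Igfbp2 window held an E-box 142 bases before the start, found in 6.02% of windows. The second held an AP-1 match 39 bases before the start, found in 6.75%, and a GGAAA core 174 bases before it, found in 55.6%. The Lcn2 and Igfbp2 windows shared no motif of those searched, and the matches are descriptions of letters, not of binding.

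At 24 h of Ang-II all 3 genes were far above untreated aortas in Cn-Ctl and WT mice. In mice labelled SM-Cn-/-, Prg4 and Igfbp2 were 2.56- and 2.59-fold above untreated and Lcn2 stood at 0.952 of its untreated mean. In CsA mice, Igfbp2 reached levels close to WT, whereas Prg4 and Lcn2 began from higher untreated levels than in WT. The genes also differed in time: in Cn-Ctl, the 2 h mean was 25.2% of the 24 h mean for Prg4, 14.3% for Lcn2 and 6.25% for Igfbp2. In WT the corresponding shares were 2.39%, 7.91% and 7.68%.

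**Figure D1:**
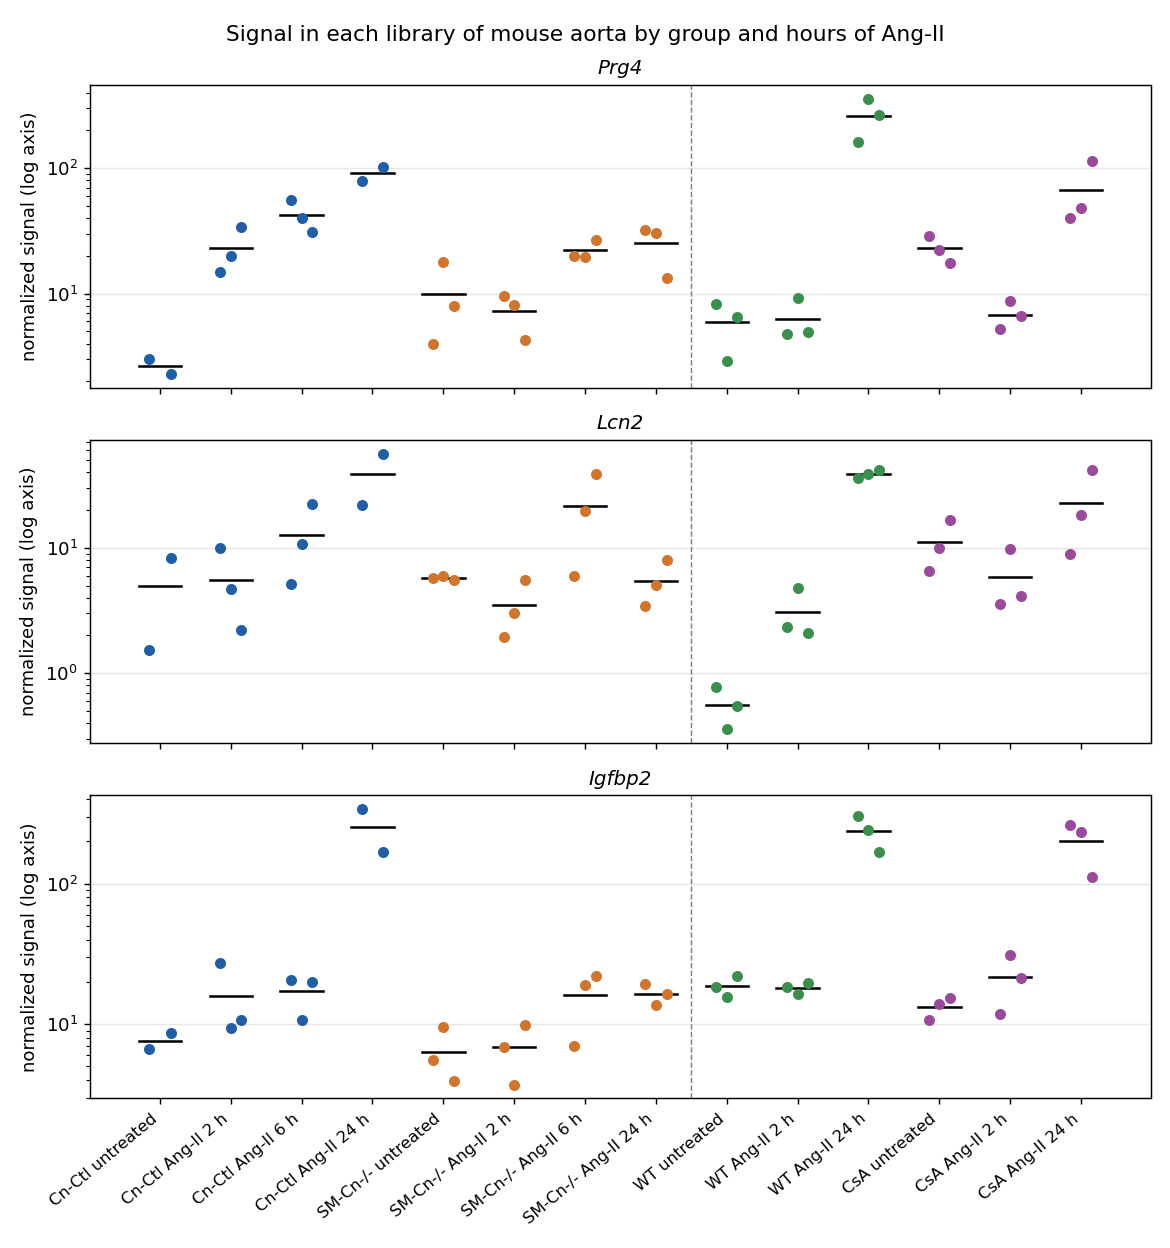
Signal of Prg4, Lcn2 and Igfbp2 (log axis) in each library, by group and hour of Ang-II, with a black line at each group mean and a dashed line between the separately normalised experiments. Igfbp2 lies between 112 and 339 in Cn-Ctl, WT and CsA libraries at 24 h and between 13.7 and 19.4 in SM-Cn-/- libraries at 24 h.

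In Cn-Ctl aortas Prg4 was already above untreated at 2 h. Its signal was 2.99 and 2.28 in the untreated Cn-Ctl libraries, 14.9, 20.1 and 34.2 at 2 h, 55.6, 40.2 and 30.9 at 6 h, and 79.6 and 103 at 24 h. Every treated library was above both untreated libraries, as it was for 20.6% of all genes at 2 h, 17.4% at 6 h and 25.3% at 24 h, and both 24 h libraries were above every other Cn-Ctl library. The log2 rise over untreated was 2.84 ± 0.48 (SE) at 2 h (adjusted p = 0.000513, n = 3 against 2) and 3.74 ± 0.48 at 6 h (adjusted p = 6.66e-05, n = 3 against 2) by limma with Benjamini-Hochberg adjustment over all genes tested. Prg4 was the 1 member of the 3 called at 2 h, where 6.23% of all 14424 genes were called, and again the 1 called at 6 h, where 3.97% were. At 24 h the log2 difference was 4.87 ± 0.53 (SE), from a mean of 2.63 ± 0.498 (SD, n = 2) to 91.4 ± 16.7 (SD, n = 2).

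In mice labelled SM-Cn-/-, Prg4 measured 3.96, 17.7 and 7.97 untreated, 9.49, 8.17 and 4.28 at 2 h, 20.0, 19.4 and 26.9 at 6 h, and 32.0, 30.7 and 13.3 at 24 h. Replicate 2 of the untreated group was the highest of the 3, and only at 6 h did every treated library exceed every untreated one, as did 10.1% of all genes. The log2 difference from untreated was −0.24 ± 0.43 (SE) at 2 h (adjusted p = 0.845) and 1.34 ± 0.43 at 6 h (adjusted p = 0.105). None of the 3 genes was called at either time in this genotype, where 1.13% and 2.34% of genes were called (limma, Benjamini-Hochberg). Without untreated replicate 2, the 6 h difference was 1.86 (adjusted p = 0.0232) and the 2 h difference was 0.28 (adjusted p = 0.837); without replicate 3 of the 2 h group it was 0.08 (adjusted p = 0.955). At 24 h the log2 difference was 1.45 ± 0.43 (SE), and the SM-Cn-/- mean of 25.3 ± 10.4 (SD, n = 3) was 27.7% of the Cn-Ctl mean.

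The 2 genotypes separated in Prg4 at 2 h. All 3 SM-Cn-/- libraries were below all 3 Cn-Ctl libraries, as for 12% of genes, with means of 7.32 ± 2.71 and 23.1 ± 10.02 (SD, n = 3 each) and a log2 difference of −1.58 ± 0.43 (SE; adjusted p = 0.0433, limma). Prg4 was the 1 member of the 3 called where 3.7% of genes were. The rise from untreated to 2 h was itself smaller in SM-Cn-/- than in Cn-Ctl, by −3.08 ± 0.65 on the log2 scale (SE; adjusted p = 0.0240, limma interaction term), with 0.513% of genes called in that comparison and Lcn2 and Igfbp2 not among them. Both calls were narrow. The 2 h difference between genotypes ranged from −1.84 to −1.25 with 1 library left out. Its adjusted p rose above 0.05 without Cn-Ctl 2 h replicate 2 (−1.63, adjusted p = 0.111) or 3 (−1.25, adjusted p = 0.169). It also did so without SM-Cn-/- 2 h replicate 1 (−1.79, adjusted p = 0.0583), 2 (−1.68, adjusted p = 0.103) or 3 (−1.26, adjusted p = 0.177). The difference in response lost its call without Cn-Ctl 2 h replicate 2 (−3.13, adjusted p = 0.0699) or 3 (−2.76, adjusted p = 0.0652), Cn-Ctl untreated replicate 2 (−3.24, adjusted p = 0.139) or 3 (−2.92, adjusted p = 0.164). The same held without SM-Cn-/- 2 h replicate 2 (−3.19, adjusted p = 0.0593) or 3 (−2.76, adjusted p = 0.0706), or SM-Cn-/- untreated replicate 2 (−2.56, adjusted p = 0.0719). At 6 h the genotypes differed by −0.89 ± 0.43 (SE; adjusted p = 0.360) and the responses by −2.40 ± 0.65 (SE; adjusted p = 0.367), and untreated aortas by 1.50 ± 0.48 (SE; adjusted p = 0.646), none of which passed the limma test. Of all genes, 1.98% were called between the genotypes at 6 h, 0.0624% for the response at 6 h and 0.0139% in untreated aortas.

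In the CsA experiment Prg4 followed another course at 2 h. WT libraries measured 8.26, 2.90 and 6.51 untreated, 4.75, 9.18 and 4.91 at 2 h, and 162, 358 and 268 at 24 h. The 2 h and untreated libraries overlapped (log2 difference 0.13 ± 0.41 (SE), 95% interval −0.74 to 1.0004; adjusted p = 0.863, limma), so no change was detectable at 2 h in WT. Without WT 2 h replicate 2 the difference was −0.16 (adjusted p = 0.863), and without WT untreated replicate 2 it was −0.27 (adjusted p = 0.732). Every 24 h library was above all others (25.4% of genes had every 24 h library above every untreated one), with a log2 difference from untreated of 5.40 ± 0.41 (SE) and means of 5.89 ± 2.73 and 263 ± 98.2 (SD, n = 3 each).

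CsA-treated mice carried more Prg4 before Ang-II. The untreated CsA libraries measured 28.7, 22.4 and 17.7, all above the 3 untreated WT libraries, as for 23.8% of genes, a log2 difference of 1.96 ± 0.41 (SE; adjusted p = 0.00372, limma). At 2 h of Ang-II the CsA libraries measured 5.19, 8.66 and 6.60, all below the untreated CsA libraries, as for 16.9% of genes, a fall of −1.68 ± 0.41 on the log2 scale (SE; adjusted p = 0.00969). The CsA minus WT difference at 2 h was then small (0.14 ± 0.41 (SE); adjusted p = 0.874, limma), where 1.33% of genes were called. Prg4 was 1 of 2 members called higher in untreated CsA than WT mice, where 25.2% of 13738 genes were called and 13.9% were called higher, and the 1 member called at 2 h within CsA, where 20.1% were called and 7.84% were called lower. At 24 h the CsA libraries measured 40.4, 48.1 and 114, all below the lowest WT library at 24 h and above the untreated CsA libraries, as were 13.7% and 15.2% of genes. The mean of 67.4 ± 40.3 (SD, n = 3) was 25.7% of WT, and the log2 difference from untreated was 1.41 ± 0.41 (SE). The difference between the CsA and WT responses at 2 h was −1.81 ± 0.58 (SE; adjusted p = 0.194, limma), with 0.146% of genes called.

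Mesothelial cells, which line serous membranes and make lubricin, were looked for through Msln, Upk3b, Upk1b, Wt1, Lrrn4, Krt19, Bnc1 and Muc16. Their summed signal was 76.2 to 192 in untreated CsA libraries and 2.66 to 9.93 in CsA libraries at 2 h. In that comparison, the one in which Prg4 fell, 8 of 8 markers were called lower, against 7.84% of all genes, with a median log2 difference of −3.23. The sum was 26.4 to 36.4 in untreated WT, below all untreated CsA libraries; between these groups 0 of 8 were called by limma, 5 had an unadjusted p under 0.05, and edgeR called 2 and DESeq2 4. In WT the sum was 17.7 to 163 at 2 h and 36.3 to 297 at 24 h, with Bnc1, Msln, Upk1b and Wt1 called higher at 24 h. CsA libraries at 24 h had sums of 44.1 to 80.9, which overlapped those of untreated CsA. In Cn-Ctl 7 listed markers summed to 2.84 to 3.38 untreated, where Muc16 and Upk1b had 0 reads, and to 35.9 to 56.1 at 24 h, where Upk1b was called higher. In SM-Cn-/- the sum was 4.72 to 53.7 untreated and 2.23 to 29.3 at 24 h. WT replicate 1 at 24 h had a sum of 36.3 and a Prg4 signal of 162, the lowest of both in its group, whereas Prg4 at 2 h in Cn-Ctl was above untreated in all 3 libraries while the sum there ranged from 2.99 to 26.6. The part of mesothelial content in the Prg4 values was not tested, and in these bulk libraries a change in the number of cells of a type and a change in RNA per cell cannot be told apart.

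**Figure D2:**
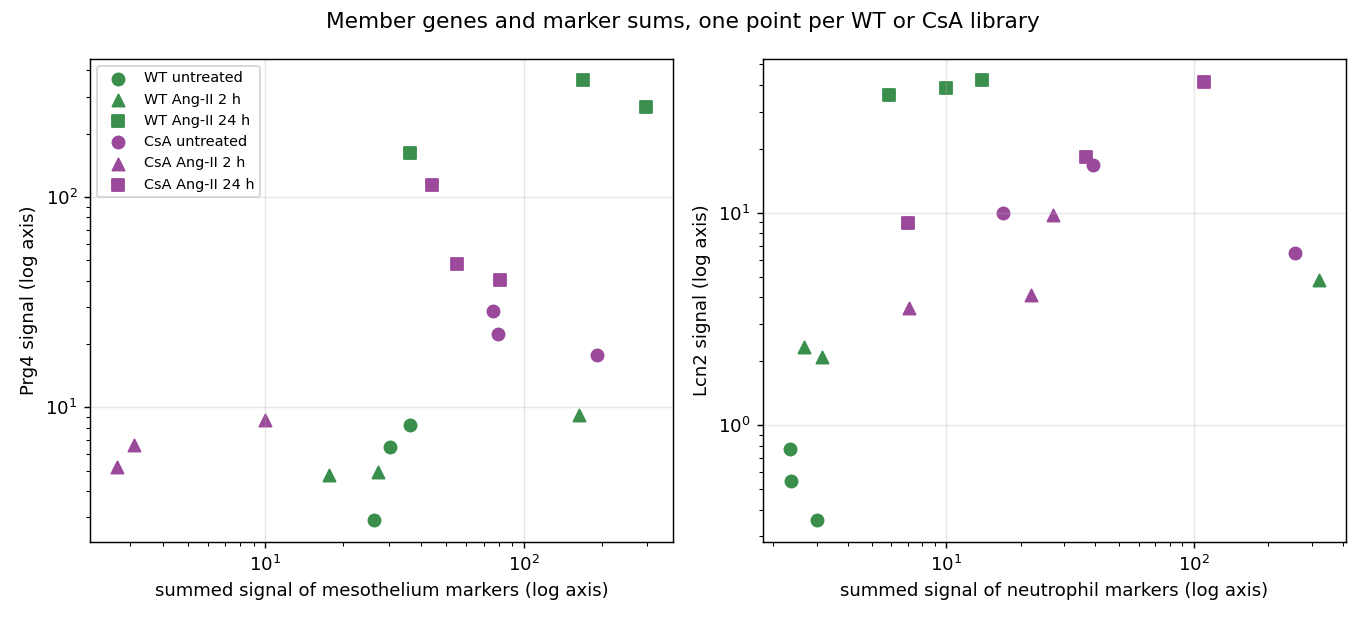
Prg4 signal against the summed mesothelial marker signal, and Lcn2 signal against the summed neutrophil marker signal, in the WT and CsA libraries (1 point per library, log axes). CsA libraries at 2 h lie at mesothelial sums of 2.66 to 9.93, below all untreated CsA libraries at 76.2 to 192, and WT libraries at 24 h combine neutrophil sums of 5.85 to 13.9 with Lcn2 signals of 35.8 to 42.0.

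Lcn2 was widely scattered within groups of the genotype experiment. Cn-Ctl libraries measured 1.53 and 8.30 untreated, 9.87, 4.65 and 2.22 at 2 h, 5.12, 10.7 and 22.4 at 6 h, and 21.995 and 56.0 at 24 h. The 2 h and 6 h libraries overlapped the untreated pair, and both 24 h libraries exceeded it, as for 25.3% of all genes. The log2 difference from untreated was 0.31 ± 0.73 (SE) at 2 h (adjusted p = 0.885) and 1.42 ± 0.73 at 6 h (adjusted p = 0.344), neither past the limma test; the 2 h value was −0.18 without Cn-Ctl 2 h replicate 1 and −0.74 without untreated replicate 2. At 24 h it was 3.08 ± 0.80 (SE), but 2.02 without untreated replicate 2 and 4.14 without untreated replicate 3, since those 2 libraries were far apart.

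In mice labelled SM-Cn-/-, Lcn2 measured 5.75, 6.00 and 5.502 untreated, 1.96, 3.04 and 5.58 at 2 h, 5.94, 19.6 and 38.7 at 6 h, and 3.44, 5.02 and 7.96 at 24 h. The highest SM-Cn-/- values were thus at 6 h, and the 24 h libraries lay on both sides of the untreated ones. The 6 h difference from untreated, 1.46 ± 0.66 (SE), did not pass (adjusted p = 0.266, limma), nor did the 2 h difference of −0.74 ± 0.66 (SE; adjusted p = 0.650). At 24 h all 3 SM-Cn-/- libraries were below both Cn-Ctl libraries, as for 17.1% of genes, with a mean of 5.47 ± 2.29 (SD, n = 3) against 39.0 ± 24.1 (SD, n = 2), or 14.02% of it. The 24 h difference from untreated within SM-Cn-/- was −0.14 ± 0.66 (SE) and 0.13 without 24 h replicate 1. No Lcn2 difference between the genotypes was detected in untreated mice (0.56, adjusted p = 0.985), at 2 h (−0.49, adjusted p = 0.822) or at 6 h (0.60, adjusted p = 0.745; limma), and the Lcn2 order of the 8 groups had no pair of neighbours that did not overlap.

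In WT mice Lcn2 started close to the lower limit of the data. Untreated WT libraries measured 0.769, 0.356 and 0.547, or 19, 9 and 13 reads, rising to 2.33, 4.797 and 2.08 at 2 h and 35.8, 38.7 and 42.0 at 24 h. The 3 time points did not overlap. Of all genes, 20.3% were above untreated in every 2 h library and 25.4% in every 24 h library. The log2 rise at 2 h was 1.70 ± 0.47 (SE; adjusted p = 0.0162, limma), the 1 member of the 3 called where 21.4% of genes were called. It did not pass without WT 2 h replicate 2 (1.37, adjusted p = 0.0677) or without WT untreated replicate 2 (1.55, adjusted p = 0.0638). At 24 h the mean signal was 69.7 times the untreated mean, and the log2 difference, on a scale with 0.5 added to each signal, was 5.23 ± 0.47 (SE). With 2 added it was 3.997, and with 0.1 added it was 5.93.

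Untreated CsA libraries had Lcn2 signals of 6.49, 9.92 and 16.8, all above every untreated WT library, as for 23.8% of genes. The log2 difference from untreated WT was 3.37 ± 0.47 (SE; adjusted p = 0.000538, limma), the larger of the 2 called differences among the 3 genes. CsA libraries then measured 3.55, 9.78 and 4.11 at 2 h and 8.94, 18.3 and 41.4 at 24 h, so both times overlapped untreated CsA. The 2 h difference from untreated was −0.90 ± 0.47 (SE; adjusted p = 0.183), the 24 h difference 0.85 ± 0.47 (SE), and the CsA minus WT difference 0.77 ± 0.47 at 2 h (SE; adjusted p = 0.393, limma). The difference between the CsA and WT responses at 2 h was −2.60 ± 0.66 (SE; adjusted p = 0.124, limma). At 24 h the CsA mean of 22.9 ± 16.7 was 58.9% of the WT mean of 38.8 ± 3.12 (SD, n = 3 each), and replicate 3 of CsA overlapped WT.

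Neutrophil markers did not track Lcn2 evenly. In untreated CsA libraries 8 listed markers of 12 summed to 16.95 to 256, against 2.33 to 3.00 in untreated WT, where Mmp8 had 0 reads, and Ngp, S100a8 and S100a9 were called higher in CsA. In WT at 24 h the sum was 5.85 to 13.9 with 2 of 8 called (35% of all genes were, in either direction), whereas WT replicate 2 at 2 h had the highest sum of all, 321, with an Lcn2 signal of 4.797. In Cn-Ctl, 5 listed markers summed to 4.73 to 7.57 untreated, with S100a8 and S100a9 at 0 reads, and 7.15 to 11.3 at 24 h. Macrophage markers were called higher 8 of 8 in untreated CsA against WT (312 to 378 against 118 to 171) and 8 of 8 in WT at 24 h (313 to 455), against 13.9% and 18.1% of all genes. In that untreated comparison 7 of 7 smooth muscle markers were called lower, against 11.4% of all genes. There 7 of 7 endothelial markers and 5 of 6 adipocyte markers were called higher, against 13.9%. In the genotype experiment, endothelial markers summed higher in SM-Cn-/- than in Cn-Ctl libraries, without overlap, at all times but 6 h. They summed to 567 to 745 against 326 to 441 untreated and 1091 to 1166 against 459 to 476 at 24 h. Chondrocyte markers at 24 h summed to 409 to 420 against 124 to 192. Mesothelial markers at 24 h also did not overlap, but were lower in SM-Cn-/-, at 2.23 to 29.3 against 35.9 to 56.1. The 24 h sums of smooth muscle, macrophage, neutrophil, adventitial fibroblast, adipocyte and blood markers overlapped. The part of all these shifts in the member values was not tested.

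In Cn-Ctl, most of the difference in Igfbp2 arose between 6 and 24 h. Cn-Ctl libraries measured 6.63 and 8.67 untreated, 27.4, 9.38 and 10.6 at 2 h, 20.8, 10.7 and 19.9 at 6 h, and 339 and 168 at 24 h. All treated libraries were above the untreated pair, but by little until 24 h, and both 24 h libraries were several times the highest earlier one. The log2 difference from untreated was 0.85 ± 0.52 (SE) at 2 h (adjusted p = 0.412) and 1.07 ± 0.52 at 6 h (adjusted p = 0.300; limma). The 20.6% and 17.4% of all genes given for Prg4 are the shares that stood above untreated in every 2 h and every 6 h library. The share for the 24 h libraries was 25.3%. At 24 h the log2 difference was 4.88 ± 0.57 (SE) and the mean rose from 7.65 ± 1.44 to 253 ± 121 (SD, n = 2 each).

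In mice labelled SM-Cn-/-, Igfbp2 measured 5.60, 9.57 and 3.93 untreated, 6.88, 3.71 and 9.94 at 2 h, 6.95, 19.1 and 22.03 at 6 h, and 19.4, 13.7 and 16.4 at 24 h. The 24 h libraries stood above all untreated ones, as for 11.6% of genes, but at the level of the 6 h libraries. Their mean was 6.51% of the Cn-Ctl mean at 24 h, the lowest such share of the 3 genes. The 6 h difference from untreated was 1.20 ± 0.46 (SE; adjusted p = 0.185) and became 1.70 (adjusted p = 0.0485, limma) without 6 h replicate 1, and the 24 h difference was 1.38 ± 0.46 (SE). No Igfbp2 difference between the genotypes was detected before 24 h (−0.32 untreated, adjusted p = 0.988; −1.08 at 2 h, adjusted p = 0.269; −0.19 at 6 h, adjusted p = 0.903; limma).

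Igfbp2 was also the gene on which the CsA and WT groups were closest at 24 h. WT libraries measured 18.5, 15.7 and 22.2 untreated, 18.4, 16.3 and 19.7 at 2 h and 301, 239 and 168 at 24 h. CsA libraries measured 10.8, 13.9 and 15.3 untreated, 11.9, 31.2 and 21.4 at 2 h and 260, 234 and 112 at 24 h. The 24 h groups overlapped, and the CsA mean of 202 ± 79.1 was 85.6% of the WT mean of 236 ± 66.7 (SD, n = 3 each). The log2 rise from untreated to 24 h was 3.59 ± 0.32 in WT and 3.80 ± 0.32 in CsA (SE), and the CsA minus WT log2 difference at 24 h, −0.27, was 0.10 without CsA replicate 3. At 2 h neither group had moved past the test (WT −0.04 ± 0.32, adjusted p = 0.947; CsA 0.58 ± 0.32, adjusted p = 0.214; SE, limma), although the CsA value was 0.94 (adjusted p = 0.0402) without CsA 2 h replicate 1. In untreated mice the 3 CsA libraries were below the 3 WT libraries, as were 24% of all genes, but the log2 difference of −0.48 ± 0.32 (SE) did not pass (adjusted p = 0.288, limma).

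**Figure D3:**
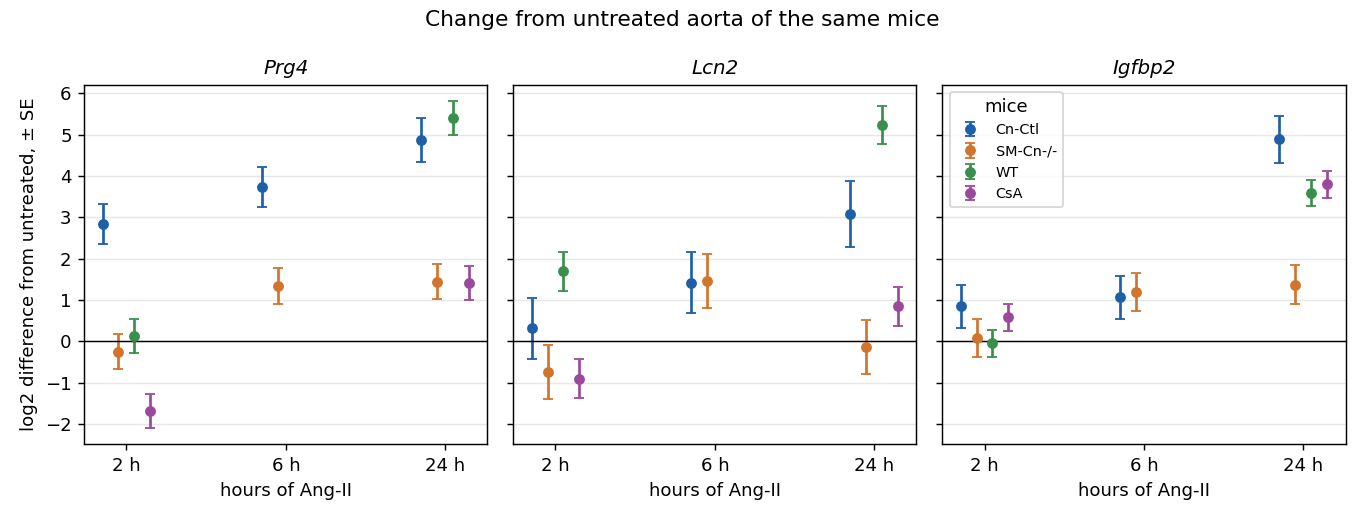
Log2 difference from the untreated group of the same arm (± SE, limma) at each hour of Ang-II for Prg4, Lcn2 and Igfbp2 in mice of the 4 arms. In Cn-Ctl, Prg4 stands at 2.84 at 2 h and 3.74 at 6 h while Igfbp2 stands at 0.85 and 1.07, and both come to 4.87 and 4.88 at 24 h.

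Ranked by log2 difference at 24 h among 14424 genes, Igfbp2 was number 1 and Prg4 number 2 in Cn-Ctl, with Lcn2 number 31. In WT, Prg4 was number 1, Lcn2 number 2 and Igfbp2 number 17 of 13738. In CsA, Igfbp2 was again number 1, whereas Prg4 was number 48 and Lcn2 number 195. In SM-Cn-/- the 3 genes stood at 126 (Prg4), 162 (Igfbp2) and 9169 (Lcn2). The rule gave no cutoff, and these ranks describe the choice rather than test it. Per kilobase of exon, Igfbp2 had the highest mean level of the 3 genes at 24 h, 137 in Cn-Ctl and 128 in WT, against 21.3 and 61.4 for Prg4 and 14.9 and 14.8 for Lcn2, and 109, 15.7 and 8.71 in CsA for Igfbp2, Prg4 and Lcn2.

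CsA replicate 3 at 24 h stood apart on all 3 genes, with the highest Prg4 (114) and Lcn2 (41.4) and the lowest Igfbp2 (112) of its group. It also had an adipocyte marker sum of 5646 against 2022 and 2887, a neutrophil sum of 110 against 7.01 and 36.6, and a smooth muscle sum of 18963 against 26774 and 27560. Its mesothelial sum, 44.1, was the lowest of the 3. Without this library the log2 difference from untreated CsA at 24 h was 0.95 for Prg4, 0.30 for Lcn2 and 4.18 for Igfbp2; whether the tissue content of the pool bears on these values was not tested.

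The IGF ligands and receptors gave Igf1, the growth factor that Igfbp2 binds, as the gene with the largest change of their list. Igf1 rose at 24 h in Cn-Ctl from 31.5 ± 6.22 to 131 ± 18.1 (SD, n = 2 each; log2 2.05, adjusted p = 0.00207, limma). It rose in WT from 30.9 ± 11.4 to 118 ± 34.1 (SD, n = 3 each; log2 1.94, adjusted p = 1.93e-05, limma). In CsA it rose from 44.0 ± 8.43 to 99.4 ± 15.5 (SD, n = 3 each; log2 1.17, adjusted p = 0.00745, limma). In SM-Cn-/- it measured 43.4 ± 7.51 untreated and 24.3 ± 0.626 at 24 h (log2 −0.81, adjusted p = 0.260), and at 24 h it was lower than in Cn-Ctl by −2.40 (adjusted p = 0.000281), a comparison in which 4.94% of genes were called. Of the 7 list genes, 1 was called higher in Cn-Ctl. In SM-Cn-/- 0 were called by limma, edgeR or DESeq2, and 1, Igf1, had an unadjusted p under 0.05. In WT 3 were higher (Igf1 and the receptors Igf1r, log2 0.40, adjusted p = 0.0386, and Igf2r, 0.31, adjusted p = 0.0118) and 1 lower, the receptor substrate Irs1 (−0.96, adjusted p = 3.49e-05). With 1 library left out, Igf1r lost its call in 4 of 6 fits (0.32 to 0.46) and Igf2r in 2 (0.26 to 0.36). The list's median log2 difference was 0.11 (WT), 0.06 (CsA), 0.20 (Cn-Ctl) and 0.08 (SM-Cn-/-), against 0.004, −0.024, −0.017 and −0.002 over all genes. At 24 h 35% of all genes were called (WT), 8.98% (CsA), 5.62% (Cn-Ctl) and 0.79% (SM-Cn-/-).

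Igfbp2 was chosen for its rise at 24 h, so its size beside the other IGF binding proteins describes the choice. In Cn-Ctl, WT and CsA the log2 differences of the other IGF binding proteins at 24 h were all smaller in size than that of Igfbp2, whereas in SM-Cn-/- those of Igfbp1 (not called), Igfbp5 and Igfbp6 were larger than its 1.38. Of 7 in the genotype experiment, Igfbp4 (log2 0.79, adjusted p = 0.0258) and Igfbp6 (1.37, adjusted p = 0.0480) rose in Cn-Ctl at 24 h by limma. Of 6 in the CsA experiment, Igfbp3 (1.09, adjusted p = 0.0188), Igfbp4 (0.57, adjusted p = 0.0175) and Igfbp6 (0.79, adjusted p = 0.00425) rose in WT, again by limma. Igfbp6, which prefers IGF-II, also rose in SM-Cn-/-, from 16.7 ± 3.96 to 49.9 ± 10.2 (SD, n = 3 each; log2 1.55, adjusted p = 0.0258). Igfbp5, the neighbour of Igfbp2, fell in 2 arms. In SM-Cn-/- it went from 419 ± 118 to 151 ± 51.5 (log2 −1.50, adjusted p = 0.00831), and in CsA from 601 ± 67.7 to 368 ± 72.3 (SD, n = 3 each; log2 −0.72, adjusted p = 0.0311). In Cn-Ctl and WT its differences were −0.09 (adjusted p = 0.914) and 0.25 (adjusted p = 0.354; limma). With 1 library left out, the calls in Cn-Ctl were lost in 4 of 4 fits for both Igfbp4 (0.65 to 0.93) and Igfbp6 (1.04 to 1.70). Fitted with the compared groups alone, their adjusted p was 0.119 and 0.133, and Igfbp6 also missed with 2 added (0.0540) and with all listed genes (0.0523; limma). Calls were lost in 4 of 6 such fits for Igfbp6 in SM-Cn-/- and Igfbp5 in CsA, 3 for Igfbp3 and 2 for Igfbp4 in WT, and 1 for Igfbp5 in SM-Cn-/-; Igfbp5 in CsA had an adjusted p of 0.0669 with the compared groups alone (limma). The median of the list was 0.41 (WT), −0.53 (CsA), 0.66 (Cn-Ctl) and −0.02 (SM-Cn-/-).

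Among 5 proteases and stanniocalcins that act on IGF binding proteins, none was called at 24 h in Cn-Ctl, SM-Cn-/- or CsA by limma, edgeR or DESeq2. The unadjusted limma p was under 0.05 for 3 (Htra1, Pappa and Stc2), 1 (Htra1) and 1 (Pappa) of them. In WT, the IGF binding protein protease Pappa rose from 1.87 ± 0.472 to 7.29 ± 0.298 (log2 1.73, adjusted p = 1.17e-05). Its inhibitor Stc1 rose from 4.59 ± 0.331 to 13.2 ± 3.25 (1.402, adjusted p = 0.0111), and the serine protease Htra1 fell from 472 ± 35.9 to 241 ± 11.01 (SD, n = 3 each; log2 −0.97, adjusted p = 7.39e-05). The call of Stc1 was lost in 1 of 6 fits with a library left out. The list's median was 0.62 (WT), 0.19 (CsA), −0.65 (Cn-Ctl) and 0.43 (SM-Cn-/-).

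**Figure D4:**
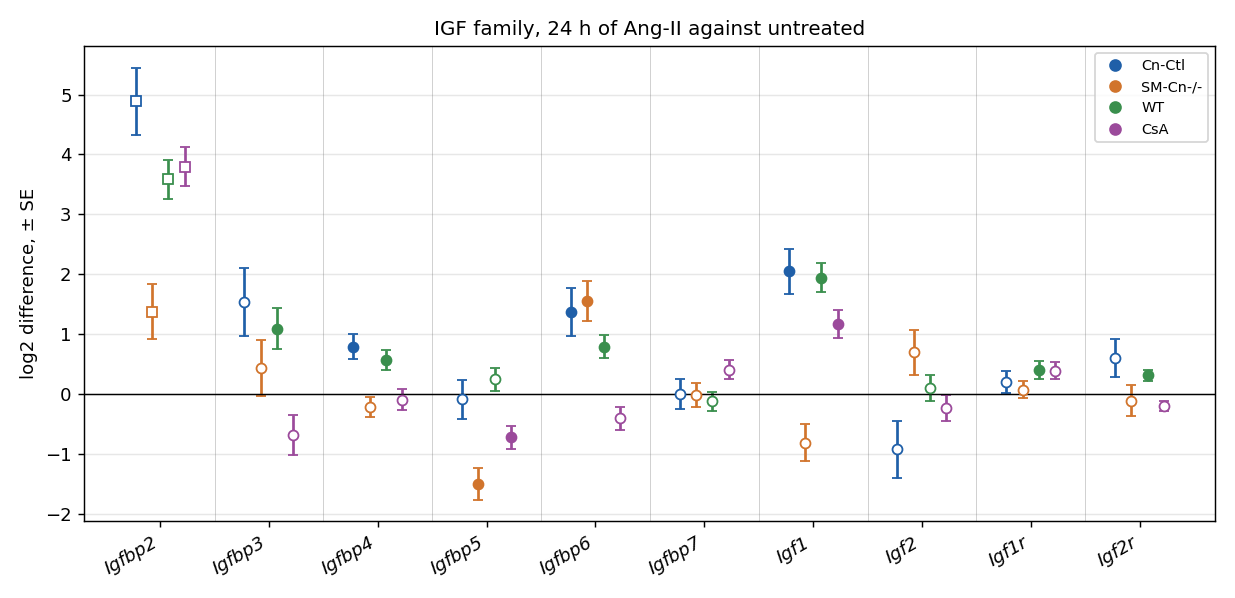
Log2 difference between 24 h of Ang-II and untreated (± SE, limma) for Igfbp2, the other IGF binding proteins, ligands and receptors in the 4 arms. Filled circles have an adjusted p under 0.05, open circles do not, and squares mark Igfbp2, which was not tested at 24 h; Igf1 stands at 2.05 in Cn-Ctl and −0.81 in SM-Cn-/-.

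Acute-phase secreted proteins other than Lcn2 rose most in WT. Of 14 tested there, 9 were called higher at 24 h, as were 18.1% of all genes, and none lower, with a median log2 difference of 1.75, and in Cn-Ctl 3 of 18 were called higher, with a median of 1.25. In SM-Cn-/- 1 of 18 was higher (median −0.51). In CsA 0 of 14 were called by limma (median 0.01), although Ptx3, Serpina3m and Serpina3n had an unadjusted p under 0.05, and edgeR called 1 (Serpina3n) and DESeq2 these 3. The serine protease inhibitor Serpina3n rose in Cn-Ctl from 23.9 ± 1.36 to 268 ± 103 (log2 3.41, adjusted p = 1.14e-05; SD, n = 2 each, limma). It rose in SM-Cn-/- from 38.5 ± 2.41 to 99.1 ± 31.4 (1.30, adjusted p = 0.0299) and in WT from 11.9 ± 1.75 to 327 ± 74.7 (4.71, adjusted p = 3.06e-07; SD, n = 3 each, limma). Serpina3n belongs to a cluster of close paralogs, between which reads may be shared. Haptoglobin, encoded by Hp, rose in Cn-Ctl (log2 2.98, adjusted p = 0.0182) and WT (3.81, adjusted p = 1.75e-05) and measured 265 ± 67.1 and 252 ± 74.4 in SM-Cn-/- (SD, n = 3; log2 −0.09, adjusted p = 0.981). Ptx3, a pattern-recognition pentraxin, rose in the same 2 arms (2.58, adjusted p = 0.00749; 3.64, adjusted p = 7.83e-05). In Cn-Ctl the Hp value was 1.81 without 24 h replicate 3 (adjusted p = 0.344) and 4.15 without 24 h replicate 2. Its call was also lost without untreated replicate 2 (2.65, adjusted p = 0.166) or 3 (3.31, adjusted p = 0.0684), and with the compared groups alone (adjusted p = 0.0762; limma). The call of Ptx3 in Cn-Ctl was lost in 3 of 4 such fits (2.13 to 3.04) and with the compared groups alone (adjusted p = 0.0891), and that of Serpina3n in SM-Cn-/- in 5 of 6 (1.12 to 1.59; limma).

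Before Ang-II, 10 of these 14 genes were called higher in CsA than in WT, against 13.9% of all genes. Their median log2 difference was 1.73, against −0.016 over all genes. Among them were Serpina3n (2.73, adjusted p = 0.000535), Hp (3.35, adjusted p = 0.000538) and the complement gene C3 (2.33, adjusted p = 0.00168; limma), the comparison in which Lcn2 itself differed by 3.37. At 2 h of Ang-II in CsA, 5 of the 14 were called lower, against 7.84% of all genes, and 0 higher by limma, Serpina3n by −1.49 (adjusted p = 0.00703). Of the genes that drive the acute phase, 3 of 14 rose in Cn-Ctl at 24 h (median 0.78), 2 in SM-Cn-/- (median 0.14), 11 of 15 in WT (median 0.82) and 3 in CsA (median 0.24). The shares of all genes called in these arms, in either direction, were 5.62%, 0.79%, 35% and 8.98%. The transcription factor Cebpd rose in all 4 arms, by 1.46 in Cn-Ctl (adjusted p = 0.00626), 1.33 in SM-Cn-/- (adjusted p = 0.0141), 1.70 in WT (adjusted p = 5.45e-06) and 0.74 in CsA (adjusted p = 0.0202). The oncostatin M receptor gene Osmr rose in Cn-Ctl (1.23, adjusted p = 0.00536), SM-Cn-/- (1.00, adjusted p = 0.0213) and WT (1.65, adjusted p = 5.08e-06), all by limma. With 1 library left out, the call of Cebpd was lost in 2 of 4 fits in Cn-Ctl, 3 of 6 in SM-Cn-/- and 3 of 6 in CsA, and that of Osmr in 2 of 4 in Cn-Ctl and 5 of 6 in SM-Cn-/-. With the compared groups alone, the adjusted p in Cn-Ctl was 0.162 for Cebpd and 0.0597 for Osmr, and in SM-Cn-/- it was 0.0533 and 0.0550 (limma). In WT both calls held in 6 of 6 such fits.

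**Figure D5:**
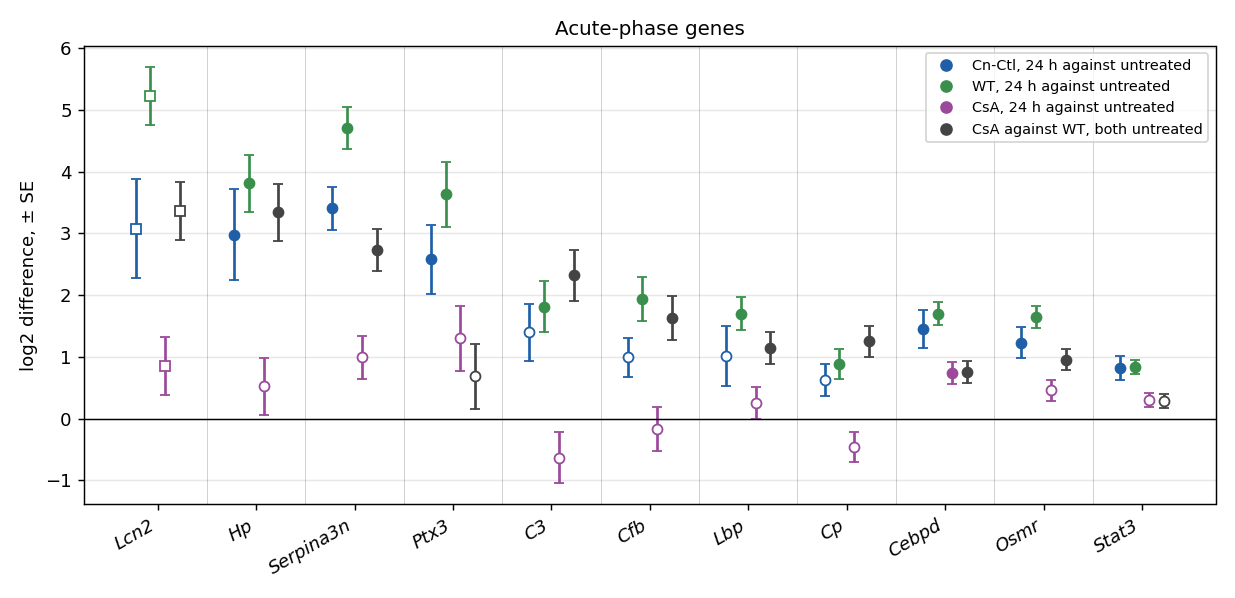
Log2 difference (± SE, limma) of Lcn2 and other acute-phase genes at 24 h against untreated in Cn-Ctl, WT and CsA mice, and in untreated CsA against untreated WT mice. Filled circles have an adjusted p under 0.05, open circles do not, and squares mark Lcn2; Hp stands at 3.81 in WT at 24 h, 3.35 in untreated CsA against WT and 0.53 in CsA at 24 h.

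Among the receptors of lipocalin 2, changes at 24 h were called in WT and in no other arm. Of all genes, 35% were called at 24 h in WT, 5.62% in Cn-Ctl, 0.79% in SM-Cn-/- and 8.98% in CsA, in either direction. Lrp2, which encodes the endocytic receptor megalin, rose in WT from 0.896 ± 0.196 to 6.32 ± 4.76 (log2 1.88, adjusted p = 0.0250). The Lrp2 call was lost without WT 24 h replicate 2 (1.53, adjusted p = 0.117) or 3 (1.35, adjusted p = 0.125) or untreated replicate 2 (1.77, adjusted p = 0.0757) or 3 (1.89, adjusted p = 0.0574), and the value was 2.76 without 24 h replicate 1 (limma). Slc22a17, a cell-surface receptor for lipocalin 2, fell from 27.6 ± 1.96 to 13.8 ± 2.33 (SD, n = 3 each; log2 −0.98, adjusted p = 0.00388, limma). In the other 3 arms 0 of the list were called at 24 h by limma, edgeR or DESeq2, and 0 had an unadjusted p under 0.05. The list's median was −0.41 (Cn-Ctl) and 0.29 (SM-Cn-/-) over 2 genes, and 0.37 (WT) and −0.17 (CsA) over 3. Of 11 iron genes, only the ferritin light chain Ftl1 was called in Cn-Ctl (log2 1.397, adjusted p = 0.00253; list median 0.35) and in SM-Cn-/- (1.06, adjusted p = 0.0207; list median −0.16). In WT, Ftl1 (0.88, adjusted p = 0.000354), the transferrin receptor Tfrc (1.12, adjusted p = 0.000905) and Bdh2 (0.74, adjusted p = 0.0222) rose and the ferritin heavy chain Fth1 fell (−0.40, adjusted p = 0.0219) among 10 iron genes (median 0.09). In CsA 0 of 10 were called by limma, edgeR or DESeq2 (median −0.18), and 2, Slc40a1 and Tfrc, had an unadjusted p under 0.05. With 1 library left out, the Ftl1 call was lost in 1 of 4 fits in Cn-Ctl and 5 of 6 in SM-Cn-/-, and those of Bdh2 and Fth1 in WT in 3 of 6 each; Fth1 had an adjusted p of 0.0528 with the compared groups alone (limma).

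Of the 3 lubricin receptors, Cd44, Tlr2 and Tlr4, only Cd44 was called at 24 h. It rose from 44.1 ± 1.35 to 185 ± 92.4 in Cn-Ctl (SD, n = 2 each; log2 1.96, adjusted p = 0.00117). It rose from 38.6 ± 2.22 to 235 ± 91.3 in WT (2.51, adjusted p = 2.11e-06) and from 33.7 ± 1.64 to 66.3 ± 12.5 in CsA (SD, n = 3 each; 0.95, adjusted p = 0.0222). In SM-Cn-/- the difference was −0.30 (adjusted p = 0.744), and 0 of the 3 receptors had an unadjusted p under 0.05 there. At 24 h Cd44 was lower in SM-Cn-/- than in Cn-Ctl (−1.99, adjusted p = 0.000449) and lower in CsA than in WT (−1.75, adjusted p = 0.00258, with 5.58% of genes called), both by limma. The CsA rise lost its call in 5 of 6 fits with a library left out (0.82 to 1.09), and the CsA minus WT difference with the compared groups alone (adjusted p = 0.0732). The median over these 3 genes was 0.28 (WT), 0.36 (CsA), 0.84 (Cn-Ctl) and −0.30 (SM-Cn-/-).

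The 10 genes known to regulate Prg4 elsewhere showed no common direction at 24 h. Shares of all genes called at 24 h, in either direction, were 5.62% (Cn-Ctl), 0.79% (SM-Cn-/-), 35% (WT) and 8.98% (CsA). In Cn-Ctl the growth factor gene Tgfb2 rose (log2 0.91, adjusted p = 0.0139) and the transcription factor gene Foxo1 fell (−0.73, adjusted p = 0.0221), with a list median of −0.26. In SM-Cn-/- Tgfb2 fell from 94.6 ± 19.3 to 35.4 ± 4.28 (SD, n = 3 each; log2 −1.39, adjusted p = 0.000340; list median 0.05), and at 24 h it was lower than in Cn-Ctl by −2.42 (adjusted p = 3.9e-07). In WT, Tgfb3 rose (0.72, adjusted p = 0.00859) and Creb5 (−0.84, adjusted p = 0.0110), Foxo1 (−0.55, adjusted p = 0.00284), Foxo3 and Tgfbr2 (−0.50, adjusted p = 0.000306) fell (list median −0.18). In CsA 0 were called by limma or edgeR (list median 0.04), whereas 4 had an unadjusted p under 0.05 and DESeq2 called 3 (Tgfb2, Tgfb3 and Tgfbr2). In Cn-Ctl the calls of Foxo1 and Tgfb2 were lost in 3 and 2 of 4 fits with a library left out and with the compared groups alone (adjusted p = 0.155 and 0.0830, limma), and that of Creb5 in WT in 1 of 6.

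Among 12 small proteoglycans and lubricating matrix genes, the hyaluronan synthase gene Has1 had the largest difference at 24 h in Cn-Ctl, WT and CsA. It had 0 reads in both untreated Cn-Ctl libraries and a signal of 8.33 ± 3.05 (SD, n = 2) at 24 h, against 0.457 ± 0.197 (SD, n = 3) in SM-Cn-/-, a log2 difference of −3.18 between the genotypes (adjusted p = 0.00312). In WT it rose from 0.411 ± 0.0485 to 16.4 ± 4.78 (log2 4.17, adjusted p = 2.47e-07) and in CsA from 1.08 ± 0.187 to 4.45 ± 1.95 (SD, n = 3 each; 1.58, adjusted p = 0.00457), all by limma. Unlike Prg4, Has1 was also called higher at 2 h in both WT (2.41, adjusted p = 2.56e-05) and CsA (1.06, adjusted p = 0.0182; limma), the latter call being lost in 2 of 6 fits with a library left out and with the compared groups alone. The small proteoglycan osteoglycin, encoded by Ogn, fell in Cn-Ctl (−2.22, adjusted p = 0.00661), WT (−1.90, adjusted p = 4.32e-06) and CsA (−0.77, adjusted p = 0.0236), and Hapln1, a link protein of hyaluronan, fell in WT (−2.10, adjusted p = 0.000102). With 1 library left out, the Ogn call was lost in 2 of 4 fits in Cn-Ctl (−2.76 to −1.67) and 3 of 6 in CsA (−0.92 to −0.55), and that of the genotype difference in Has1 in 1 of 5. With the compared groups alone, the adjusted p was 0.0728 for Ogn and 0.0503 for Has1 in CsA (limma). Shares of all genes called at 24 h, in either direction, were 5.62% (Cn-Ctl), 0.79% (SM-Cn-/-), 35% (WT) and 8.98% (CsA). The list counts were 1 higher and 2 lower in Cn-Ctl, 0 called in SM-Cn-/- by limma, edgeR or DESeq2 (2 had an unadjusted p under 0.05), 2 higher and 3 lower in WT and 1 higher and 1 lower in CsA, with medians of −0.11, −0.09, −0.06 and −0.04.

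Over the 14 group means, centred within each experiment, the genes whose pattern was most like Prg4 among 2120 genes with enough range were Serpina3n (Pearson r 0.97), Pf4 (0.96), Ccl9 (0.95), Fam111a (0.94) and Adgrd1 (0.94). Those most like Lcn2 were Anxa8 (0.96), Hp (0.94), Serpina3n (0.92), Procr (0.91) and Msr1 (0.91). Those most like Igfbp2 were Gmppb (0.95), Nol12 (0.95), Mettl1 (0.94) and Nans (0.94). The members correlated with each other at 0.87 for Prg4 and Lcn2, 0.84 for Prg4 and Igfbp2 and 0.78 for Lcn2 and Igfbp2. The 14 points share libraries, untreated groups and scaling, the members were chosen for a common rise at 24 h, and the values are a description. Within groups, where the time course is removed, library deviations correlated at −0.38, −0.07 and 0.43 for the same 3 pairs over 22 genotype libraries and at 0.60, −0.29 and −0.10 over 18 CsA libraries, so the libraries with more Prg4 than their group were not consistently those with more Igfbp2.

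By group mean, the Prg4 order in the genotype experiment ran from Cn-Ctl 24 h, which did not overlap the next group, through Cn-Ctl 6 h, SM-Cn-/- 24 h, Cn-Ctl 2 h and SM-Cn-/- 6 h, each overlapping its neighbour. Below these came SM-Cn-/- untreated and SM-Cn-/- 2 h, which overlapped, and Cn-Ctl untreated, which lay below all. In the CsA experiment WT 24 h, CsA 24 h and CsA untreated were separate from each other, and CsA 2 h, WT 2 h and WT untreated overlapped. For Igfbp2, Cn-Ctl 24 h stood alone above the other 7 genotype groups, and WT 24 h and CsA 24 h overlapped above the other 4 groups of the CsA experiment. For Lcn2, the untreated WT group was the one group that did not overlap its neighbour in the order, lying below all the others.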

How the data were processed

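RNA from pooled mouse aortas was primed with oligo-dT and sequenced on an Illumina Genome Analyzer IIx. The authors aligned reads to Ensembl transcripts of GRCm38 with Bowtie 0.12.7 and estimated gene counts with RSEM 1.16, per the methods and the submitters' processing notes, and deposited 1 table of normalised signal for each experiment. The deposited signal values, read from the tables themselves, equal reads plus 0.5 over a scaled library size: 100% of values gave whole reads, and columns sum to between 877583 and 1179360. The scaling and the gene filter are not given in the sources used here. No column was left unmapped. Gene classes and positions came from GENCODE M21.

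Protein-coding genes with a signal of at least 1 in at least 2 libraries (14424 and 13738) were tested on log2(signal + 0.5), a scale that understates the change of low genes, with limma 3.58.1 (R 4.3.3), 1 mean per group and an intensity trend, all groups of a table in 1 fit, and Benjamini-Hochberg adjustment over the table; a gene was called at an adjusted p under 0.05. TMM and quantile scaling, other pseudocounts and filters, edgeR 4.0.16 and DESeq2 1.42.0 on recovered reads, a replicate block and each library left out were alternatives. The fits were tested on simulated data. The members, lists and markers were chosen with earlier results of these data known. Of each pathway list, up to 4 genes called at 24 h in at least 1 arm with the largest change were named, besides ligands, receptors and proteases of a member and genes named by a list's count; the genes most alike are the 5 of highest Pearson r over group means, among genes with a group mean of at least 5 and a range of at least 1 log2 unit, of which 1 is not reported here. In the 2 tables the read totals were 2.73M to 10.3M and 19.0M to 38.9M.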

Additional observations from a re-analysis of the deposited data

Results flagged for a closer look

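The Prg4 response to 2 h of Ang-II differed between the genotypes by the interaction term, −3.08 on the log2 scale with an SE of 0.65 (adjusted p = 0.0240, limma with Benjamini-Hochberg adjustment). The term combines the genotype difference at 2 h, −1.58 (adjusted p = 0.0433), with that in untreated aortas, 1.50 (adjusted p = 0.646, limma). The untreated Cn-Ctl libraries, with 12 and 20 reads of Prg4, also served the choice of the gene. The rise was 2.84 in Cn-Ctl, where all 3 treated libraries were above both untreated libraries, and −0.24 in libraries labelled SM-Cn-/-, where treated and untreated libraries overlapped. Leaving out 1 library at a time kept the direction in 11 of 11 fits, with values from −3.57 to −2.56. Among fits that kept at least 2 libraries in every group, the call was lost without replicate 2 or 3 of either 2 h group. The same held without SM-Cn-/- untreated replicate 2 (adjusted p 0.0593 to 0.0719 over these fits, limma). The fits without Cn-Ctl untreated replicate 2 (−3.24) or 3 (−2.92) left 1 library in that group and lost the call too. In WT mice of the CsA experiment the 2 h difference of Prg4 was 0.13, and the difference between Cn-Ctl and WT, which are in separately normalised tables, was not tested.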

How the results depend on the processing

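Of the 60 member values, those not named here kept their direction and their side of the threshold under pseudocounts of 0.1 and 2, no filter, a mean signal of at least 5, all genes listed, TMM scaling, quantile normalization, edgeR, DESeq2, a fit of the compared groups alone and the replicate block. With quantile normalization the Prg4 difference between genotypes at 2 h was −1.54 (adjusted p = 0.0743), that in response −2.89 (0.0701) and the CsA minus WT difference at 2 h −0.012; with the compared groups alone the first pair was −1.58 (0.0506) and −3.08 (0.0681). DESeq2 gave −2.85 for the Prg4 response at 6 h (adjusted p = 0.0186) and −3.42 for the Lcn2 response of CsA against WT (adjusted p = 0.00127). With 2 added, the Lcn2 rise in WT at 2 h was 0.95 (adjusted p = 0.112, limma). The Lcn2 rise in WT at 24 h was 5.93 with 0.1 added, 3.997 with 2, 6.15 by edgeR and 6.19 by DESeq2, the untreated libraries holding 9 to 19 reads. The Lcn2 difference in genotype response at 6 h was −0.039 with 0.1 added. The causes of the other changes were not tested.

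The labels do not say that a replicate number marks a shared batch or day, and the deviations of libraries with the same number did not correlate in every pair, so numbers were not treated as pairs. The median correlation was 0.06 for the same number and −0.04 for different numbers in the genotype experiment, and −0.03 and −0.01 in the CsA experiment. As a hint from the data, 17 of 22 genotype libraries and 7 of 18 CsA libraries had a higher mean correlation with libraries of their own number than with others. With the replicate block, the Lcn2 difference in genotype response at 6 h was −0.17, and no other member value changed its call or direction; of the list genes, Igf1r in WT at 24 h lost its call (0.40, adjusted p = 0.0515, limma).

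Leaving out 1 library at a time gave 390 fits, of which 343 kept direction and call. For Prg4 the ranges were −0.74 to 0.28 (SM-Cn-/- 2 h), 0.85 to 1.86 (SM-Cn-/- 6 h), −1.84 to −1.25 (genotypes at 2 h), −3.57 to −2.56 (genotype response at 2 h), −0.27 to 0.41 (WT 2 h) and −0.033 to 0.43 (CsA minus WT at 2 h). For Lcn2 they were −0.74 to 1.37 (Cn-Ctl 2 h), 2.02 to 4.14 (Cn-Ctl 24 h), −0.42 to 0.13 (SM-Cn-/- 24 h), −0.50 to 1.62 (genotypes untreated), −0.96 to 0.0036 (genotypes at 2 h), −2.11 to 0.0088 and −1.02 to 1.10 (genotype response at 2 h and 6 h) and 1.37 to 1.89 (WT 2 h). For Igfbp2 they were −0.22 to 0.44 (SM-Cn-/- 2 h), 0.90 to 1.70 (SM-Cn-/- 6 h), −0.49 to 0.31 (genotypes at 6 h), −0.17 to 0.63 (genotype response at 6 h), −0.16 to 0.081 (WT 2 h), 0.27 to 0.94 (CsA 2 h), and −0.17 to 0.50 and −0.50 to 0.10 (CsA minus WT at 2 h and 24 h). Of the 78 values of list genes, 35 lost their call or turned in at least 1 such fit. Those that turned were Hp in SM-Cn-/- (−0.29 to 0.18) and in CsA (−0.0096 to 0.96) and Igfbp5 in Cn-Ctl (−0.34 to 0.16), all at 24 h and never called. With the compared groups alone, 16 list-gene values lost their call.

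The number of genes called in the whole table moved more than the member values. Over all alternatives it ran from 377 to 1292 for Cn-Ctl at 2 h (899 in the reported fit), 131 to 947 at 6 h (572) and 200 to 1147 at 24 h (810); from 50 to 392 (163), 112 to 632 (338) and 28 to 316 (114) for SM-Cn-/- at these hours; from 261 to 825 (534) between genotypes at 2 h and 16 to 176 (74) for the response at 2 h; and from 1443 to 3293 for CsA at 2 h, 396 to 1839 for CsA at 24 h and 2039 to 4196 between untreated CsA and WT. The counts between CsA and WT ran from 2 to 794 at 2 h, 0 to 1535 at 24 h and 0 to 323 for the response at 2 h, and those between genotypes from 0 to 21 untreated, 45 to 523 at 6 h, 177 to 1010 at 24 h and 0 to 42 for the response at 6 h. Untreated libraries held as few as 9 reads of Lcn2 (WT), 12 of Prg4 (Cn-Ctl) and 17 of Igfbp2 (SM-Cn-/-).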
